A study of Mus musculus with 37 samples.

Results

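The miR-15/16 family is a group of microRNAs that share the bases of their seed, the stretch near the 5′ end that pairs with target transcripts. The members were chosen by name: mmu-miR-15a-5p, mmu-miR-15b-5p, mmu-miR-16-5p, mmu-miR-195a-5p and mmu-miR-322-5p (mmu marks the mouse and is left out from here on), 5 of the 1915 mature microRNAs in the count table, with the first row taken for each name. They were measured by small RNA sequencing of whole blood from male wild-type C57BL/6 mice of the learning group, which was habituated to the water maze at the first of the 4 ages and trained and tested in it before each later blood collection. The 37 libraries fell into 4 ages: 9 came from mice of 12 months, 12 from 13.5, 5 from 15 and 11 from 16.5 months. The labels name no engineered allele and no drug. The groups differed in age, and in the training and the number of earlier blood collections that went with age, and these cannot be told apart here. The study was longitudinal, with blood taken repeatedly from the trained mice, so libraries of different ages can come from 1 mouse. Which libraries do so is not given in the labels, so libraries were tested as independent, and p-values measure the spread between these libraries only. The members were named with earlier results of these data known, which the p-values do not take into account.

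MicroRNAs are cut as a duplex from a hairpin precursor, and the strand of the 5′ side (5p) or the 3′ side (3p) is loaded onto an Argonaute protein while its partner is mostly degraded. Members of this family pair with transcripts of cell cycle and survival genes such as cyclin D1 and Bcl2, and the human miR-15a and miR-16-1 locus is often deleted in chronic lymphocytic leukaemia. In blood, miR-16 is known as an abundant microRNA of red blood cells. The genes lie in clusters: Mir15a beside Mir16-1, Mir15b beside Mir16-2, Mir195a beside Mir497, and Mir322 in an X-linked cluster with Mir503 and Mir351.

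The mature sequences are shown because all 5 share 1 seed and differ in the rest. Capitals mark the seed, bases 2 to 8 from the 5′ end, and the sequences are those of RefSeq on GRCm38.p6, in which all 5 members were matched.
miR-15a-5p: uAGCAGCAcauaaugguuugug
miR-15b-5p: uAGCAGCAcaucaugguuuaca
miR-16-5p: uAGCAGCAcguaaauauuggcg
miR-195a-5p: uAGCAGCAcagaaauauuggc
miR-322-5p: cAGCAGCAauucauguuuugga

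The 5 members fall into visible subgroups beyond the seed. From position 1, miR-16-5p and miR-195a-5p were identical at 19 of 21 positions, and miR-15a-5p and miR-15b-5p at 18 of 22. The least alike were miR-195a-5p and miR-322-5p, with 11 of 21 identical positions. The longest run shared by any pair was 11 bases, shorter than the 18 bases of the shortest read kept by the authors, so no kept read within a mature sequence could match 2 members without a mismatch. Of the 1679 mature sequences in the RefSeq table, 10 names carried this seed. Among the names with this seed that were not among the 5 chosen members, miR-195b, miR-6342, miR-6353 and miR-6419 had 0 reads in every library. miR-497a-5p, also not among the 5, had 358 reads over all libraries.

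In GRCm38.p6, miR-15a-5p lies at chr14:61632075-61632096 on the minus strand, and the copy of miR-16-5p from Mir16-1 lies 139 bases further along the transcript at chr14:61631936-61631957. Both lie in an intron of Dleu2, a non-coding transcript. miR-15b-5p lies at chr3:69009775-69009796 on the plus strand, and the copy of miR-16-5p from Mir16-2 follows after 143 bases at chr3:69009918-69009939. Both lie in an intron of Smc4, which encodes a condensin subunit. miR-195a-5p lies at chr11:70235062-70235082 on the plus strand, 332 bases from miR-497a-5p, and miR-322-5p at chrX:53054306-53054327 on the minus strand, 279 bases from miR-503 and 991 bases from miR-351. The hairpins of Mir16-1 and Mir16-2 are shown because miR-16-5p, in capitals, is the same in both while the surrounding bases differ, and the hairpin of Mir15b because the ratio of its arms differed between ages. The Mir16-1 hairpin spans chr14:61631880-61631972 on the minus strand, that of Mir16-2 spans chr3:69009902-69009996 and that of Mir15b chr3:69009772-69009835, both on the plus strand. Capitals in Mir15b mark miR-15b-5p.
Mir16-1: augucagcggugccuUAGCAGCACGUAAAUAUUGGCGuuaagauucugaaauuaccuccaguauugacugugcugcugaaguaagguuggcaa
Mir16-2: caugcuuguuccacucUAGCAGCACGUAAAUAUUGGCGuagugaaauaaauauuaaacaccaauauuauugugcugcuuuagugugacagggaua
Mir15b: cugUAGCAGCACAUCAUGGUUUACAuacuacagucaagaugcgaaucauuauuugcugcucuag

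Reads of miR-16-5p cannot be assigned to either locus, so the pairs miR-15a/16 and miR-15b/16 shared 1 measurement of miR-16. The 2 rows of miR-16-5p in the count table differed by at most 59 reads and at most 0.078% of the row. The arms that do tell the loci apart, miR-16-1-3p and miR-16-2-3p, had between 0 and 5 reads per library, too few for a comparison.

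Library totals, summed over the counts of all names, ranged from 2619533 to 20268095, and most of them were miR-486a-5p and miR-486b-5p. These 2 names had the same ratio of arms at every age, so a total can count 1 read under both. Outside those names the libraries held 140292 to 1131713 reads, with a median of 476944. Levels are given as CPM, reads scaled to a library of 1000000, with each library total multiplied by a TMM factor that sets the libraries to a common centre of the tested microRNAs and ranged from 0.309 to 1.97. Markers of blood cells were present, among them miR-451a of red blood cells, miR-223-3p of myeloid cells and miR-150-5p of lymphocytes, while of the 3 listed muscle microRNAs miR-1a-3p had 0 reads in every library, miR-206-3p had 2 reads in all and miR-133a-3p had more than 1 read in 37 of 37 libraries, with a median of 21 and at most 277. In bulk blood, fewer cells of a type and less RNA per cell cannot be told apart. A pair of libraries at 13.5 months stood apart: replicate 1 had the lowest TMM factor, 0.309, and 28 reads of miR-15a-5p, and replicate 12 had a low ratio of miR-15b-5p to miR-16-5p. Tests that rest on them are given with and without them. Both were named after the data had been seen, replicate 12 by a ratio that is itself tested. Replicate 4, with the highest log2 ratio of miR-15a-5p to miR-16-5p at that age (-5.51), was kept.

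miR-16-5p made up nearly all reads of the family. Its share of the family's reads was 95.5% ± 0.82 (SD, n = 37), followed by miR-15b-5p with 3.31% ± 0.75, miR-15a-5p with 0.985% ± 0.32, miR-195a-5p with 0.151% ± 0.051 and miR-322-5p with 0.0817% ± 0.032. The family took between 2.93% and 14.4% of the reads outside miR-486. Reads were not corrected for differences in how well each sequence is captured in a library. The order miR-16-5p, miR-15b-5p, miR-15a-5p, miR-195a-5p held in 37 of 37 libraries, whereas miR-195a-5p exceeded miR-322-5p in 32 of 37, and their ranges of CPM overlapped at every age. At the median library, miR-16-5p had 107 times the reads of miR-15a-5p, 29.0 times those of miR-15b-5p, 641 times those of miR-195a-5p and 1209 times those of miR-322-5p.

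miR-15a-5p, miR-15b-5p and miR-16-5p had over 100 reads in 50% or more of the libraries, the condition for testing, and all 3 differed with age. In edgeR's F-test over the 4 ages, the Benjamini-Hochberg adjusted p was 7.0e-05 for miR-15a-5p, 0.0082 for miR-15b-5p and 0.0103 for miR-16-5p. The background was high, since 58.6% of the 87 tested microRNAs were called by the same test. The call of miR-16-5p was lost without 15 months replicate 1 (adjusted p = 0.0615) and without 15 months replicate 3 (adjusted p = 0.0570), and with libraries scaled by the reads outside miR-486 (adjusted p = 0.066). With no filter on low counts it was lost for miR-16-5p (adjusted p = 0.168) and for miR-15b-5p (adjusted p = 0.107).

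miR-15a-5p, which shares its transcript with miR-16-1, was at similar levels at 12 and 13.5 months and lower at 15 and 16.5 months. At 12 months it had a lowest level of 41.8 CPM, a median of 55.1 and a highest of 85.3, with a mean of 59.4 ± 16.2 (SD, n = 9). At 13.5 months the lowest was 21.3 CPM, the median 58.9 and the highest 109, with a mean of 63.2 ± 22.1 (SD, n = 12). The 13.5-month libraries thus spanned the whole range of those at 12 months.

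At 15 months the levels of miR-15a-5p in replicates 1 to 5 were 17.9, 35.0, 26.5, 47.3 and 46.1 CPM, with a mean of 34.5 ± 12.6 (SD, n = 5). At 16.5 months the lowest was 22.2 CPM, the median 31.9 and the highest 43.9, with a mean of 32.5 ± 6.6 (SD, n = 11). All but 1 of the 11 libraries at 16.5 months were below the lowest library at 12 months, and every library of both older ages lay below the medians of the younger ones.

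miR-15b-5p, from the locus in Smc4, had a lowest level of 157 CPM, a median of 188 and a highest of 229 at 12 months, with a mean of 188 ± 24.4 (SD, n = 9). At 13.5 months it ranged from 67.9 to 235 CPM with a median of 195 and a mean of 180 ± 52.0 (SD, n = 12). The low values at 13.5 months came from replicate 4, with 67.9 CPM, and replicate 12, with 100 CPM. At 15 months replicates 1 to 5 had 113, 149, 139, 186 and 151 CPM, with a mean of 148 ± 26.2 (SD, n = 5). At 16.5 months the lowest level was 51.0 CPM, the median 127 and the highest 161, with a mean of 124 ± 27.6 (SD, n = 11). Here too, 10 of the 11 libraries at 16.5 months were below the lowest at 12 months.

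miR-16-5p, the predominant member, ranged from 3880 to 7710 CPM with a median of 6245 and a mean of 5989 ± 1270 (SD, n = 9) at 12 months. At 13.5 months it ranged from 2078 to 7757 CPM with a median of 5000 and a mean of 4892 ± 1465 (SD, n = 12). At 15 months replicates 1 to 5 had 2742, 3951, 3158, 4732 and 4120 CPM, with a mean of 3741 ± 792 (SD, n = 5). All of these were below the median at 12 months. At 16.5 months it ranged from 2612 to 5812 CPM with a median of 3966 and a mean of 4111 ± 886 (SD, n = 11). The ages overlapped more than for the miR-15 members, with 5 of 11 libraries at 16.5 months below the lowest at 12 months.

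**Figure D1:**
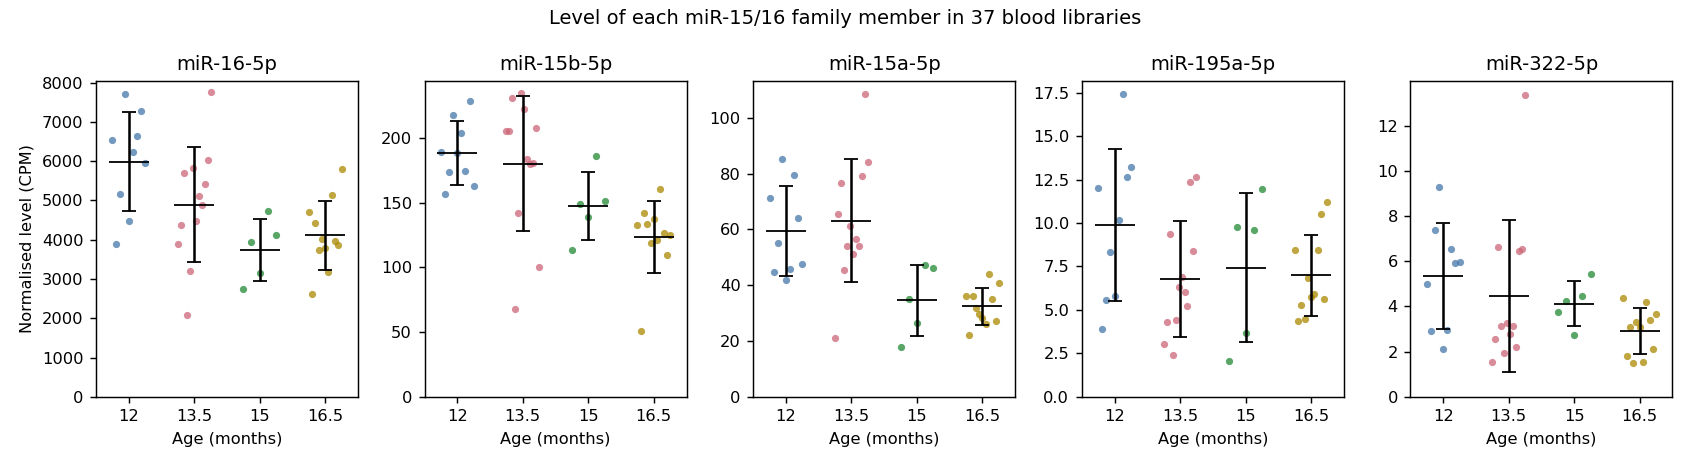
Level of each family member in CPM (vertical axis, linear, starting at 0 with its own scale per panel) against age in months, with 1 point per library and a bar for the mean ± SD (n = 9, 12, 5 and 11). miR-15a-5p averaged 59.4 and 63.2 CPM at the younger ages and 34.5 and 32.5 CPM at the older ones, and miR-195a-5p and miR-322-5p were at a few CPM with wide overlap.

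The largest differences among the members were those of miR-15a-5p at 16.5 months. From 13.5 to 16.5 months miR-15a-5p fell by 0.96 on the log2 scale (SE 0.19, edgeR adjusted p = 4.9e-05), and from 12 to 16.5 months it fell by 0.87 (SE 0.20, adjusted p = 0.0020). It also fell by 0.87 from 13.5 to 15 months (SE 0.25, adjusted p = 0.0052). The first 2 of these 3 calls held without each of the 37 libraries in turn and with each library as the TMM reference. The third held in the same fits, but not with libraries scaled by the reads outside miR-486 (adjusted p = 0.053) or with no filter (adjusted p = 0.0738).

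From 12 to 16.5 months all 3 tested members were called lower, where 13.8% of the 87 tested microRNAs were called lower and 19.5% in either direction. miR-15b-5p fell by 0.61 (SE 0.17, edgeR adjusted p = 0.0091) and miR-16-5p by 0.54 (SE 0.17, adjusted p = 0.0146). The median log2 change of all tested microRNAs was -0.0046. The calls of miR-15b-5p and miR-16-5p were lost in many of the fits that left out 1 library. Leaving out 1 library ended the call of miR-15b-5p in 14 of 37 fits, with adjusted p from 0.0502 to 0.11, and that of miR-16-5p in 15 of 37, with adjusted p from 0.0677 to 0.221. Those libraries were 12 months replicates 2 and 3, 13.5 months replicates 1 and 6, every 15 months replicate and 16.5 months replicates 4, 5, 6, 7 and 11 for both, and 13.5 months replicate 4 for miR-16-5p alone. The libraries of 13.5 and 15 months are outside this contrast and enter through the shared spread and scaling. The log2 change of miR-16-5p was -0.375 without any 1 of 13.5 months replicates 1 and 4 and 15 months replicates 1, 2, 3 and 5. Without 13.5 months replicate 6 or 15 months replicate 4 it was -0.326, as with the TMM reference that gave the highest value. Whether scaling ended these calls was not tested. Without 16.5 months replicate 5 the log2 changes were -0.39 for miR-15b-5p and -0.32 for miR-16-5p. Both remained called with 36 of 37 libraries as the TMM reference and without the libraries that stood apart (miR-15b-5p adjusted p = 0.0055, miR-16-5p adjusted p = 0.0067). With libraries scaled by the total count only, the calls of miR-15b-5p (adjusted p = 0.0603) and miR-16-5p (adjusted p = 0.0881) were lost, and with no filter they were lost as well (adjusted p = 0.125 and 0.205). That of miR-16-5p was also lost with a filter of more than 1 read (adjusted p = 0.067) and with scaling by the reads outside miR-486 (adjusted p = 0.053).

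From 13.5 to 16.5 months miR-15a-5p and miR-15b-5p were called lower and miR-16-5p was not, beside 27.6% of tested microRNAs called lower and 49.4% in either direction. miR-15b-5p fell by 0.54 (SE 0.16, edgeR adjusted p = 0.0048). This call held without each library in turn, and was lost with libraries scaled by the total count only (adjusted p = 0.0813) and with no filter (adjusted p = 0.0549). The log2 change of miR-16-5p was -0.25 (SE 0.16, adjusted p = 0.195). With 1 RUVs factor, a factor for unwanted variation estimated from the replicates, its change was called lower (edgeR adjusted p = 0.0082, DESeq2 adjusted p = 0.0027), as it was with its 2 rows summed (adjusted p = 0.0357) and with 7 of 37 libraries as the TMM reference.

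From 12 to 13.5 months none of the 3 members was called, beside 43.7% of all tested microRNAs called in either direction. The log2 change was 0.09 (SE 0.19, adjusted p = 0.70) for miR-15a-5p, -0.06 (SE 0.17, adjusted p = 0.76) for miR-15b-5p and -0.29 (SE 0.16, adjusted p = 0.15) for miR-16-5p. The sign for miR-15b-5p turned with summed rows (0.035) and with the highest TMM reference (0.15), and that for miR-15a-5p with the total count only (-0.00081). At an unadjusted p under 0.05, edgeR also gave 0 of the 3 members, and DESeq2 called 0. With 1 RUVs factor, miR-15a-5p was called higher at 13.5 months (edgeR log2 change 0.35, adjusted p = 0.0062). With a block for the replicate number, miR-16-5p was called lower at 13.5 months (edgeR log2 change -0.44, adjusted p = 0.029).

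From 12 to 15 months edgeR called 0% of the 87 tested microRNAs, and 16 of them had an unadjusted p under 0.05. The log2 change was -0.77 (SE 0.25, adjusted p = 0.052) for miR-15a-5p, -0.68 (SE 0.21, adjusted p = 0.051) for miR-16-5p and -0.35 (SE 0.22, adjusted p = 0.34) for miR-15b-5p. The former 2 lay just past the threshold, and DESeq2 called both lower, with adjusted p of 0.0281 and 0.0241, among 8 microRNAs it called in all. Without the 13.5-month libraries that stood apart, which enter through the shared spread and scaling, both were called lower by edgeR with an adjusted p of 0.0227 each. Leaving out 1 library gave a call of miR-15a-5p in 7 of 37 fits (12 months replicates 4, 5, 6 and 9, and 13.5 months replicates 1, 11 and 12) with adjusted p from 0.0306 to 0.0493. For miR-16-5p it did so in 11 of 37 (12 months replicates 1, 2, 4, 5, 6 and 9, 13.5 months replicates 5, 7, 11 and 12, and 16.5 months replicate 2), with adjusted p from 0.0203 to 0.0497.

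From 13.5 to 15 months, miR-15a-5p was the only member called lower, beside 39.1% of tested microRNAs called and 23% called lower. The log2 change of miR-15b-5p was -0.29 (SE 0.21, adjusted p = 0.29) and that of miR-16-5p -0.39 (SE 0.20, adjusted p = 0.13). Leaving out 1 library gave a call of miR-16-5p in 13 of 37 fits, with adjusted p from 0.0088 to 0.0490, namely 12 months replicates 2, 3 and 4, 13.5 months replicates 1, 4 and 6, 15 months replicates 4 and 5, and 16.5 months replicates 4, 5, 6, 7 and 11. It gave a call of miR-15b-5p without 13.5 months replicate 4 (adjusted p = 0.0158) and without 15 months replicate 4 (adjusted p = 0.0400). The libraries of 12 and 16.5 months are outside this contrast and enter through the shared spread and scaling. The log2 change of miR-16-5p was -0.63 without any 1 of 12 months replicates 2 and 3 and 16.5 months replicates 4, 5, 6, 7 and 11.

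Between 15 and 16.5 months 0 of the 3 members were called by edgeR, at an adjusted or an unadjusted threshold, or by DESeq2, where edgeR called 3.45% of all tested microRNAs. The log2 change was -0.09 (SE 0.24) for miR-15a-5p, -0.26 (SE 0.20) for miR-15b-5p and 0.14 (SE 0.20) for miR-16-5p. The differences of miR-15a-5p and miR-16-5p were smaller than their standard errors, and with libraries scaled by the total count only the sign turned for miR-15a-5p (0.21) and miR-15b-5p (0.073).

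**Figure D2:**
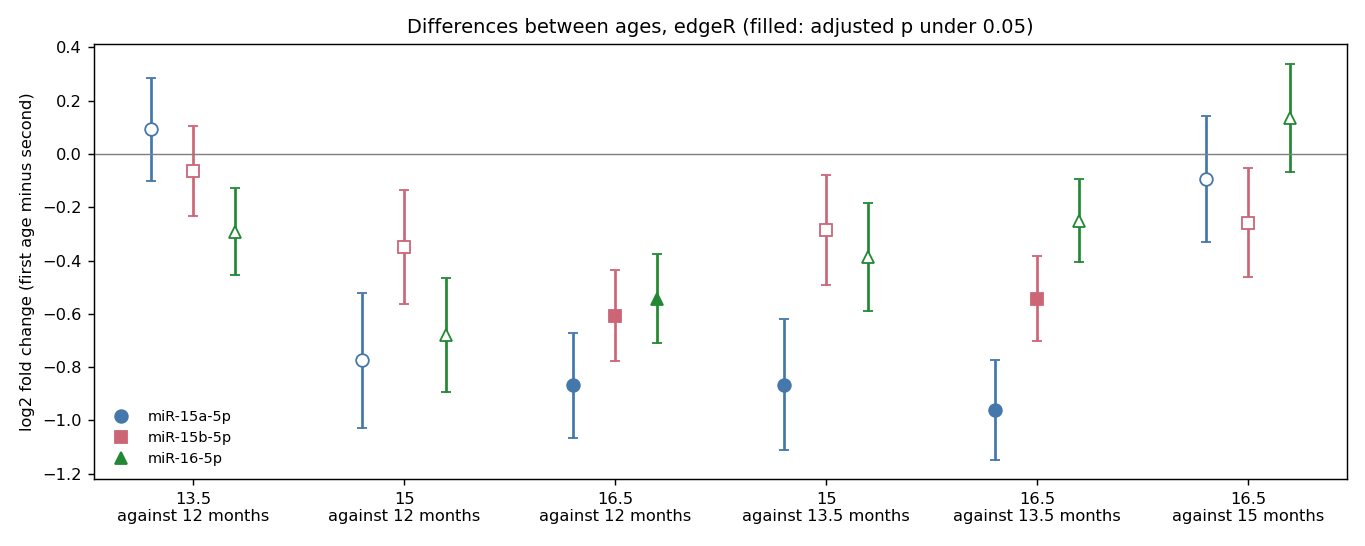
Log2 fold change (vertical axis, first age minus second) of miR-15a-5p (circles), miR-15b-5p (squares) and miR-16-5p (triangles) in the 6 comparisons of ages (horizontal axis), with error bars of 1 SE from the edgeR fit on 37 libraries and filled symbols for an adjusted p under 0.05. The 6 filled symbols all lie below 0, and the lowest is that of miR-15a-5p at 16.5 against 13.5 months, at -0.96.

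The clustered pair miR-15a/16 was compared within each library as the log2 ratio of reads, which does not depend on the scaling of libraries. miR-15a-5p fell relative to miR-16-5p. The ratio had a lowest value of -7.09, a median of -6.54 and a highest of -6.39 at 12 months, and of -7.49, -6.33 and -5.51 at 13.5 months. At 15 months the mean was -6.82 ± 0.29 (SD, n = 5). At 16.5 months the lowest was -7.15, the median -6.94 and the highest -6.81, the narrowest spread of the 4 ages, with an SD of 0.12. The 16.5-month libraries overlapped with the lower end of the 12-month ones.

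In two-sided exact permutation tests adjusted over 18 tests of 3 ratios, miR-15a-5p to miR-16-5p was lower at 16.5 than at 13.5 months by a log2 difference of -0.68 (p = 3.3e-04, adjusted p = 0.0060) and lower at 16.5 than at 12 months by -0.31 (p = 0.0025, adjusted p = 0.022). In differences paired by replicate number, the latter was -0.27 and not called (exact permutation adjusted p = 0.105). Pairing left out 16.5 months replicates 10 and 11, which have no same-numbered library at 12 months and had the lowest ratios at 16.5 months. The other 4 comparisons of this ratio were not called. From 12 to 13.5 months the difference was 0.37 (exact permutation p = 0.058, adjusted p = 0.149), and without 13.5 months replicate 1 it was 0.48 (adjusted p = 0.016). From 13.5 to 15 months it was -0.52 (exact permutation p = 0.0496, adjusted p = 0.149), and without that library -0.63 (adjusted p = 0.0185). Without both libraries that stood apart the difference was 0.51 from 12 to 13.5 months, -0.66 from 13.5 to 15 months and -0.82 from 13.5 to 16.5 months, all called by the exact permutation test, with adjusted p of 0.0096, 0.0096 and 5.1e-05. From 15 to 16.5 months the difference was -0.16 (exact permutation p = 0.126, adjusted p = 0.227), and it was called without 15 months replicate 1, at -0.27 (adjusted p = 0.0484).

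The pair miR-15b/16 gave no called difference over all libraries. The log2 ratio of miR-15b-5p to miR-16-5p had a mean of -4.97 ± 0.24 (SD, n = 9) at 12 months, -4.77 ± 0.53 (SD, n = 12) at 13.5 months, -4.65 ± 0.11 (SD, n = 5) at 15 months and -5.07 ± 0.30 (SD, n = 11) at 16.5 months. The libraries at 13.5 months ranged from -6.27, in replicate 12, to -4.24, in replicate 1, so the 2 libraries that stood apart were the ends of the range. None of its 6 comparisons was called in the exact permutation tests, with 2 of 6 at an unadjusted p under 0.05. The difference was 0.32 from 12 to 15 months (p = 0.0215, adjusted p = 0.097) and -0.42 from 15 to 16.5 months (p = 0.0089, adjusted p = 0.054). In differences paired by replicate number, this ratio was called from 12 to 13.5 months (0.39) and from 13.5 to 16.5 months (-0.44), each with an exact permutation adjusted p of 0.0234. Pairing left out libraries with no same-numbered partner, among them 13.5 months replicate 12. Without that library the unpaired difference from 13.5 to 16.5 months was also -0.44 (exact permutation adjusted p = 0.0061).

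Replicate 12 of 13.5 months was set apart for its low value of this ratio, so the calls below depend on the tested values. Without both libraries that stood apart, 4 of those 6 comparisons of miR-15b-5p to miR-16-5p were called in the exact permutation tests. The difference was then 0.30 from 12 to 13.5 months (adjusted p = 0.0315), 0.32 from 12 to 15 months (adjusted p = 0.0387), -0.40 from 13.5 to 16.5 months (adjusted p = 0.0096) and -0.42 from 15 to 16.5 months (adjusted p = 0.0268). Replicate 12 alone sufficed for 2 of them, with 0.34 from 12 to 13.5 months (adjusted p = 0.0321) and -0.44 from 13.5 to 16.5 months (adjusted p = 0.0061). Without 12 months replicate 5 the difference from 12 to 15 months was 0.37 (adjusted p = 0.0373). From 15 to 16.5 months it was -0.46 without 16.5 months replicate 7 (adjusted p = 0.0300) and -0.36 without 16.5 months replicate 2 (adjusted p = 0.0380).

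Between the miR-15 members themselves, the mean log2 ratio of miR-15a-5p to miR-15b-5p was -1.70 ± 0.35 (SD, n = 9) at 12 months, -1.53 ± 0.77 (SD, n = 12) at 13.5 months, -2.16 ± 0.36 (SD, n = 5) at 15 months and -1.90 ± 0.30 (SD, n = 11) at 16.5 months. None of the 6 comparisons was called by the exact permutation test, and the difference closest to it was -0.46 from 12 to 15 months (p = 0.039, adjusted p = 0.140). The libraries that stood apart were again the ends of the 13.5-month range, with -3.25 in replicate 1 and -0.26 in replicate 12. Without both, the exact permutation test gave -0.68 from 13.5 to 15 months (adjusted p = 0.0315) and -0.42 from 13.5 to 16.5 months (adjusted p = 0.0387). Without replicate 1 alone the differences were -0.79 (adjusted p = 0.0347) and -0.53 (adjusted p = 0.0321).

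**Figure D3:**
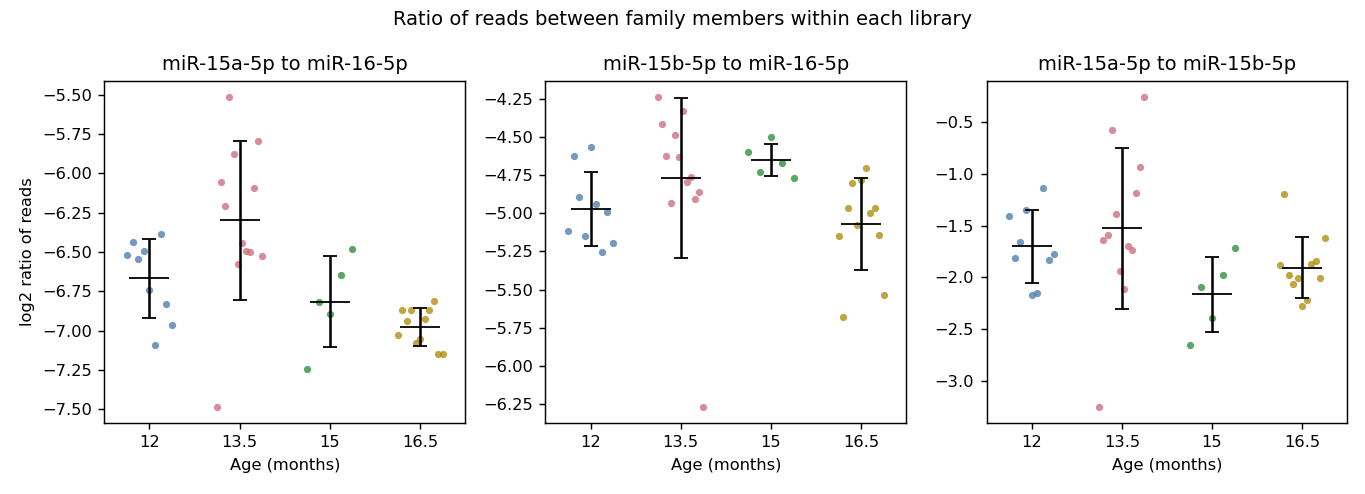
Log2 ratio of reads between family members within each library (vertical axis, own scale per panel) against age in months, with 1 point per library and a bar for the mean ± SD (n = 9, 12, 5 and 11). The ratio of miR-15a-5p to miR-16-5p was lowest on average at 16.5 months, at -6.98, and libraries far from the rest at 13.5 months are visible in each panel.

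miR-195a-5p and miR-322-5p did not meet that condition, with more than 100 reads in 9 and 1 of 37 libraries. They passed a lower filter (over 1 read in 50% or more of the libraries), under which 323 microRNAs were tested and 32.2% called in the edgeR F-test. miR-195a-5p, the member closest to miR-16-5p in sequence, had 3.89 to 17.4 CPM at 12 months (median 10.2), 2.42 to 12.6 at 13.5 months (median 6.17) and 4.36 to 11.2 at 16.5 months (median 5.91). At 15 months replicates 1 to 5 had 2.08, 9.77, 3.70, 9.59 and 12.0 CPM. The ages overlapped throughout, and the F-test gave an adjusted p of 0.554.

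miR-322-5p, the mouse counterpart of human miR-424, had 2.11 to 9.28 CPM at 12 months (median 5.94), 1.52 to 13.4 at 13.5 months (median 3.12) and 1.49 to 4.38 at 16.5 months (median 3.10). At 15 months replicates 1 to 5 had 3.74, 4.25, 2.73, 4.44 and 5.43 CPM. All 11 libraries at 16.5 months lay below the median at 12 months, but the F-test gave an adjusted p of 0.165 and the contrast of 16.5 against 12 months a log2 change of -0.75 (edgeR adjusted p = 0.101). Both members had medians under 100 reads per library, and these p-values do not show that their levels stayed the same.

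Of 17 listed rows from the same precursors and clusters, 1 passed the filter and 7 the lower filter. The former was miR-351-5p, a neighbour of miR-322 with another seed, which was called higher at 15 than at 13.5 months (log2 change 0.59, SE 0.21, edgeR adjusted p = 0.029) and was not called over all ages (adjusted p = 0.099). miR-497a-5p, the neighbour of miR-195a that carries the family seed, had a mean of 1.96 ± 0.90 CPM (SD, n = 9) at 12 months and 0.777 ± 0.43 (SD, n = 11) at 16.5 months, a fall of 1.2 on the log2 scale (edgeR with the lower filter, adjusted p = 0.026), from at most 22 reads per library. Under that filter 14.2% of the 323 microRNAs were called between these ages.

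The 3p arm of miR-15b took a course unlike that of its 5p arm. Its sequence is given because it comes from the same hairpin as miR-15b-5p, at chr3:69009813-69009834.
miR-15b-3p: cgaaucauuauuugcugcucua

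miR-15b-3p had 8.50 to 20.7 CPM at 12 months (median 10.8), 1.73 to 6.44 at 13.5 months (median 4.13) and 7.22 to 15.4 at 16.5 months (median 13.3). At 15 months replicates 1 to 5 had 5.41, 9.35, 6.59, 8.03 and 5.87 CPM. All 12 libraries at 13.5 months were below the lowest at 12 months, and all 11 at 16.5 months were above the highest at 13.5 months. How many other microRNAs separated in this way was not counted. With the lower filter miR-15b-3p fell by 1.53 on the log2 scale from 12 to 13.5 months (edgeR adjusted p = 2.1e-07), beside 21.7% of the 323 microRNAs called, and rose by 1.48 from 13.5 to 16.5 months (adjusted p = 1.3e-07), beside 26.6% called. miR-15b-3p had 4 to 256 reads per library.

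Because the arms share a precursor, their ratio was also compared within libraries, by two-sided exact permutation tests adjusted over 18 tests of 3 precursors. These tests were added after the levels of the arms had been seen. The mean log2 ratio of miR-15b-3p to miR-15b-5p was -3.88 ± 0.40 (SD, n = 9) at 12 months, -5.38 ± 0.46 (SD, n = 12) at 13.5 months, -4.38 ± 0.26 (SD, n = 5) at 15 months and -3.26 ± 0.24 (SD, n = 11) at 16.5 months. In reads at the median library, the 5p arm exceeded the 3p arm 16.4 times, 42.7 times, 20.9 times and 9.89 times at these ages. The libraries at 13.5 months did not overlap with those at 12 or 16.5 months, nor those at 15 with those at 16.5 months. Such separation was not counted for precursors outside the family.

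The difference in the miR-15b arm ratio was -1.51 from 12 to 13.5 months (exact permutation p = 3.4e-06, adjusted p = 3.1e-05) and 2.12 from 13.5 to 16.5 months (exact permutation p = 7.4e-07, adjusted p = 1.3e-05), both the smallest p that these numbers of libraries allow. It was 0.62 from 12 to 16.5 months (adjusted p = 0.0020), 1.0 from 13.5 to 15 months (adjusted p = 0.0023) and 1.12 from 15 to 16.5 months (adjusted p = 0.0014) in the same exact tests. From 12 to 15 months it was -0.50 (adjusted p = 0.0503), and 0.0458 was the adjusted p without the libraries that stood apart. The former 5 held without them and without each library in turn. In differences paired by replicate number, the comparisons of 15 months with 13.5 and 16.5 months were not called. With only 5 libraries at 15 months the paired test has too few arrangements to reach the threshold, so this says nothing about these calls.

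Arm ratios were read against the other precursors with both arms past the lower filter, 65 names in all, as the log2 ratio of the less to the more abundant arm. From 12 to 13.5 months the median difference over the 65 was -0.014, with 34 lower and 31 higher, and miR-15b had the lowest value of all. miR-1198 (-1.43) and miR-3061 (-1.40) were nearly as low. In the other direction, miR-331 (2.11) and miR-872 (1.67) differed by more than miR-15b (-1.51). From 13.5 to 16.5 months the median was 0.14, and miR-15b ranked 4 from the highest. From 12 to 16.5 months the median was 0.021, and miR-15b ranked 14 from the highest.

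miR-15a-3p, the arm opposite miR-15a-5p, was also lower at 13.5 months relative to its partner. The mean log2 ratio of miR-15a-3p to miR-15a-5p was -3.54 ± 0.68 (SD, n = 9) at 12 months, -4.74 ± 0.92 (SD, n = 12) at 13.5 months, -3.35 ± 1.29 (SD, n = 5) at 15 months and -3.95 ± 0.60 (SD, n = 11) at 16.5 months. The difference from 12 to 13.5 months was -1.2 (exact permutation adjusted p = 0.014). The differences of 1.39 from 13.5 to 15 months and 0.80 from 13.5 to 16.5 months both had an adjusted p of 0.0503 in the exact test, and without the libraries that stood apart the adjusted p were 0.026 and 0.0196. With the lower filter, the level of miR-15a-3p changed by -0.74 on the log2 scale from 12 to 13.5 months (edgeR adjusted p = 0.25). From 12 to 16.5 months it changed by -1.35 (adjusted p = 0.043), beside 14.2% of the 323 microRNAs called. miR-15a-3p had a median of 22 reads per library, and the ages overlapped.

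For miR-322, whose arms were of similar abundance, the mean log2 ratio of 3p to 5p was -0.42 ± 0.78 (SD, n = 9) at 12 months, -1.33 ± 1.05 (SD, n = 12) at 13.5 months, -0.71 ± 0.26 (SD, n = 5) at 15 months and -0.28 ± 0.59 (SD, n = 11) at 16.5 months. The ratio was higher at 16.5 than at 13.5 months by 1.05 (exact permutation adjusted p = 0.022). The difference from 12 to 13.5 months was -0.92 (exact permutation adjusted p = 0.068), and -0.99 without the libraries that stood apart (adjusted p = 0.042). In its own level, miR-322-3p was called lower at 13.5 than at 12 months (log2 change -1.25, edgeR with the lower filter, adjusted p = 1.3e-04). Beside it 21.7% of the 323 microRNAs were called, and miR-322-5p changed by -0.078 (adjusted p = 0.90). miR-322-3p had 2 to 67 reads per library.

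**Figure D4:**
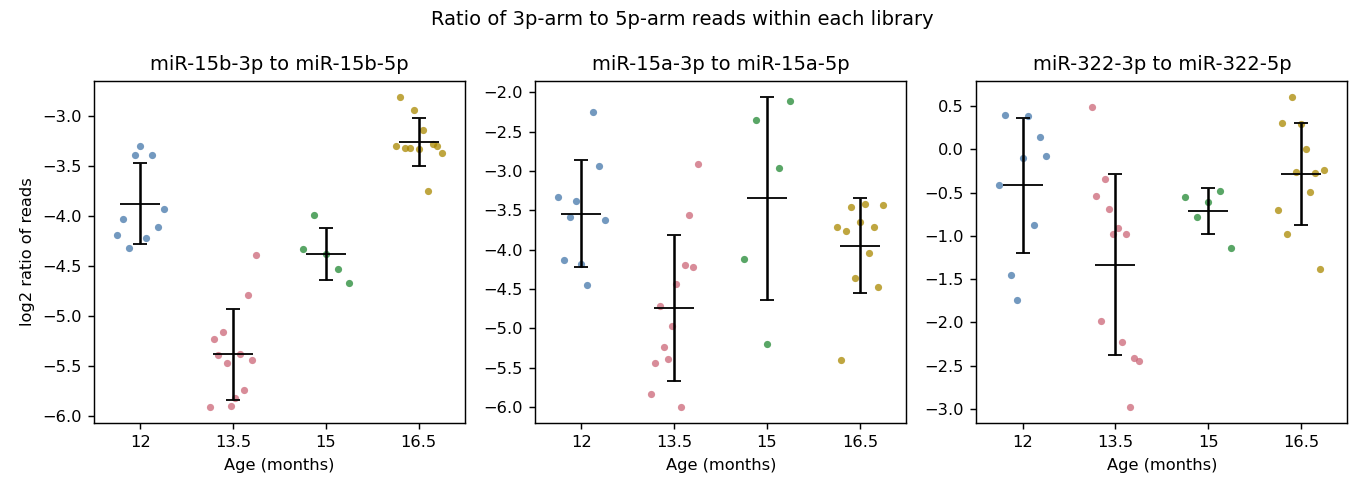
Log2 ratio of 3p-arm to 5p-arm reads within each library (vertical axis, own scale per panel) against age in months, with 1 point per library and a bar for the mean ± SD (n = 9, 12, 5 and 11). For miR-15b the 12 libraries at 13.5 months lie below all those at 12 months, and the 11 at 16.5 months lie above all those at 13.5 and 15 months. Separation of this kind was not counted for precursors outside the family.

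From 12 to 13.5 months, where the arm ratios of miR-15b and miR-15a differed, 43.7% of the 87 tested microRNAs were called. Markers of several blood cell types were among them, in both directions. Of the 5 listed red cell microRNAs, 4 were tested and 3 called over the ages, beside 58.6% of all tested microRNAs. Between 12 and 13.5 months 2 were lower and 1 higher. miR-451a, which is abundant in erythrocytes, differed by -1.44 (SE 0.39, edgeR adjusted p = 0.0030), miR-144-5p, from the same transcript, by -1.65 (SE 0.30, adjusted p = 5.8e-05) and miR-92a-3p by 1.64 (SE 0.38, adjusted p = 8.2e-04). The red cell marker miR-486a-5p and the lymphocyte marker miR-150-5p were not called (edgeR adjusted p = 0.35 and 0.96). The summed level of the 5 ranged from 240518 to 845533 CPM at 12 months, 262080 to 1626780 at 13.5 months, 465362 to 1046910 at 15 months and 322879 to 865087 at 16.5 months, with none of the 5 at 0, and miR-486a-5p was the largest part. The sum can exceed 1000000 where the TMM factor is far under 1. The myeloid marker miR-223-3p differed by -1.01 between 12 and 13.5 months (SE 0.24, edgeR adjusted p = 9.6e-04) and the general blood cell marker miR-142a-5p by -0.54 (SE 0.16, adjusted p = 0.0059). The summed level of the 2 myeloid rows ranged from 14.9 to 55.9 CPM at 12 months and from 5.31 to 28.7 at 13.5 months, and that of the 2 general blood cell rows from 2358 to 3437 and from 933 to 3170 CPM, with none at 0. The part of these markers in the results on the family was not tested. Between 12 and 16.5 months, where all 3 tested members were lower, 19.5% of the 87 tested microRNAs were called in either direction. In that comparison edgeR called 0 of the 4 tested red cell markers, 0 of 1 of myeloid cells and 0 of 1 of lymphocytes. With so few markers, these counts do not show that their levels stayed the same. The muscle marker miR-133a-3p, which passed only the lower filter, was called lower in the same comparison (log2 change -1.79, edgeR adjusted p = 0.017). Under that filter 14.2% of the 323 microRNAs were called. The platelet and endothelial rows miR-126a-3p and miR-126a-5p changed by -0.86 and -0.92 and were not called (edgeR adjusted p = 0.151 and 0.167). They had at most 9 and 52 reads per library. The summed level of the 3 muscle microRNAs ranged from 0.933 to 24.5 CPM at 12 months and from 0.281 to 5.68 at 16.5 months, with miR-1a-3p at 0, and its part in the results was not tested. Between 12 and 16.5 months the log2 change was -0.73 for miR-451a (SE 0.39, adjusted p = 0.19), -0.39 for miR-223-3p (SE 0.24, adjusted p = 0.26) and 0.22 for miR-150-5p (SE 0.40, adjusted p = 0.75).

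The microRNAs whose reads followed each member most closely were found from the SD, over the 37 libraries, of the log2 ratio between them, where a low SD means a steady ratio. This is a description, since all points share library depth. For miR-15a-5p the steadiest partner outside the family was miR-93-5p, of the miR-106b-25 cluster, with an SD of 0.26 against a median of 0.85 over the 86 other tested microRNAs, followed by miR-532-5p with 0.43 and miR-29a-3p with 0.44. The mean level of miR-93-5p was 105, 92.7, 60.2 and 62.4 CPM at the 4 ages.

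For miR-15b-5p the steadiest partners outside the family were miR-652-3p, with an SD of 0.32 against a median of 0.72, miR-222-3p with 0.37 and let-7g-5p with 0.43. For miR-16-5p they were miR-222-3p, with an SD of 0.32 against a median of 0.69, miR-93-5p with 0.34 and miR-22-3p with 0.37. Within the family, miR-16-5p ranked 2 of 86 for miR-15a-5p (SD 0.43) and 3 of 86 for miR-15b-5p (SD 0.38). The miR-15 members were less steady with each other, with an SD of 0.55, at rank 15 and 14 of 86. The lowest and highest of these ratios, -3.25 and -0.26, were those of 13.5 months replicates 1 and 12, the libraries that stood apart. By age the SD was 0.35 at 12, 0.77 at 13.5, 0.36 at 15 and 0.30 at 16.5 months. The SDs and ranks were not computed without those libraries.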

How the data were processed

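Blood was drawn from the retro-orbital sinus, and libraries were made with the TruSeq small RNA kit and sequenced as single-end reads. The authors trimmed adapters with cutadapt, checked reads with FastQC 0.11.5, discarded reads under 18 nt and counted with miRDeep2 against mm10 and miRBase, with 0 mismatches. The authors deposited raw read counts per mature microRNA and precursor, and a second table of normalized signal, the counts scaled by 1 factor per library, which served as an alternative only.

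Groups were the ages in the labels. Counts were tested in edgeR 4.0.16 (R 4.3.3) by quasi-likelihood F-tests in 1 fit of all 37 libraries, over microRNAs with over 100 reads in 50% or more of the libraries, with TMM factors and Benjamini-Hochberg adjustment over all 87 microRNAs tested and a threshold of 0.05. The fit was tested on simulated data. Ratios used reads plus 0.5 and two-sided exact permutation tests. No 2 replicates of a group agreed within sampling noise, with a chi-square of at least 15.0 per degree of freedom over 167 pairs.

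Named microRNAs were the members, rows of the same precursors and clusters, names with the same seed, the 3 steadiest partners of each tested member and cell markers. The members and lists were chosen with earlier results of these data known. Alternatives were DESeq2 1.42.0, a RUVs factor, other scalings and filters, summed rows, limma 3.58.1 on the normalized signal, a block for the replicate number, and leaving out libraries. Locations were taken from RefSeq and GENCODE on GRCm38, the build of mm10. The home cage mice, brain and human samples of the study were not analysed here.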

Additional observations from a re-analysis of the deposited data

Results flagged for a closer look

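In 1 of 28 groups of 4 to 10 libraries that were examined, a library lay far from the others. miR-15a-3p was at 16.7 CPM in 12 months replicate 7, which stood 0.574 of the whole range of the 9 libraries above its nearest neighbour. Chance gives about 1 such group in 20.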

How the results depend on the processing

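Over all alternatives, the adjusted p of the age F-test of miR-15a-5p stayed under 0.05, and so did its contrasts of 16.5 months with 12 and with 13.5 months. With no filter on low counts the F-test of miR-15b-5p gave an adjusted p of 0.107 and that of miR-16-5p 0.168, and with libraries scaled by the reads outside miR-486 that of miR-16-5p was 0.066. Without 1 library at a time, that of miR-16-5p ran from 0.0025 to 0.0615. The causes were not tested, except that more microRNAs enter the adjustment with no filter.

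The number of tested members called lower changed as follows. From 12 to 13.5 months it was 0, and 1 with 1 TMM reference and with the replicate block. From 12 to 15 months it was 0, and 2 with DESeq2, with a RUVs factor in either tool, with the total count only, with summed rows, with the most favourable TMM references and without the libraries that stood apart, and 0 to 2 without 1 library. From 12 to 16.5 months it was 3, and 1 with the least favourable TMM reference, with the total count only and with no filter, and 1 to 3 without 1 library. From 13.5 to 15 months it was 1, and 2 with a RUVs factor, with summed rows and with the most favourable TMM references, 0 with scaling outside miR-486 and with no filter, and 1 to 3 without 1 library. From 13.5 to 16.5 months it was 2, and 1 with the total count only and with no filter, and 3 with a RUVs factor in either tool, with summed rows and with 7 TMM references. Scaling by the total count alone moved the median log2 change of all tested microRNAs by -0.71 from 12 to 15 months and by -0.33 from 12 to 16.5 months.

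Small changes that were not called turned sign. From 12 to 13.5 months miR-15a-5p was at -0.00081 on the log2 scale with the total count only, and -0.0041 to 0.34 without 1 library, while miR-15b-5p was at 0.15 with the highest TMM reference, 0.013 with DESeq2 and a RUVs factor, 0.045 with the lower filter, 0.0090 with no filter, 0.035 with summed rows, and -0.10 to 0.16 without 1 library. From 15 to 16.5 months miR-15a-5p was at 0.16 with the highest TMM reference, 0.027 with edgeR and a RUVs factor, 0.21 with the total count only, and -0.15 to 0.30 without 1 library, while miR-15b-5p was at 0.073 with the total count only and -0.30 to 0.058 without 1 library. The ratio of miR-322-3p to miR-322-5p from 12 to 16.5 months was -0.15 as a difference in medians and -0.032 to 0.24 without 1 library, and that of miR-15a-3p to miR-15a-5p from 12 to 15 months was -0.12 to 0.65 without 1 library.

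Without the 13.5-month libraries that stood apart, a choice made after seeing the data, the log2 ratio of miR-15a-5p to miR-16-5p differed by 0.51 from 12 to 13.5 months and by -0.66 from 13.5 to 15 months. That of miR-15b-5p to miR-16-5p differed by 0.30 from 12 to 13.5 months, 0.32 from 12 to 15 months, -0.40 from 13.5 to 16.5 months and -0.42 from 15 to 16.5 months. That of miR-15a-5p to miR-15b-5p differed by -0.68 from 13.5 to 15 months and by -0.42 from 13.5 to 16.5 months. Each of these was then called. Without 1 library, miR-15a-5p to miR-16-5p ran from 0.30 to 0.48 (12 to 13.5 months), -0.63 to -0.41 (13.5 to 15 months) and -0.27 to -0.077 (15 to 16.5 months). miR-15b-5p to miR-16-5p ran from 0.15 to 0.34 (12 to 13.5 months), 0.28 to 0.37 (12 to 15 months), -0.018 to 0.17 (13.5 to 15 months), -0.44 to -0.24 (13.5 to 16.5 months) and -0.46 to -0.36 (15 to 16.5 months). miR-15a-5p to miR-15b-5p ran from -0.79 to -0.52 (13.5 to 15 months) and -0.53 to -0.26 (13.5 to 16.5 months).

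The labels do not say whether a replicate number marks the same mouse at each age. Same-numbered libraries of different ages deviated from their group means with a mean correlation of -0.035 over 44 pairs. It ran from -0.86 to 0.83, with 20 pairs over 0.1. Differently numbered libraries were not compared, so these values cannot decide whether the numbers pair the libraries. With the replicate block, miR-16-5p was called lower at 13.5 than at 12 months (-0.44, edgeR adjusted p = 0.029), and, uncalled, miR-15a-5p changed by -0.064 from 12 to 13.5 months and miR-16-5p by -0.056 from 15 to 16.5 months. In paired differences, the ratio of miR-15a-5p to miR-16-5p was at -0.27 from 12 to 16.5 months and no longer called (exact permutation adjusted p = 0.105). The ratio of miR-15b-5p to miR-16-5p was at 0.39 from 12 to 13.5 months and -0.44 from 13.5 to 16.5 months, both called, and at -0.11 from 13.5 to 15 months. Paired differences left out libraries with no same-numbered partner, among them 13.5 months replicate 12, so these changes cannot be credited to pairing alone. miR-15a-5p to miR-15b-5p was at -0.073 from 12 to 13.5 months, and miR-322-3p to miR-322-5p at -0.10 from 13.5 to 15 months. The miR-15b arm ratio was not called from 13.5 to 15 months and from 15 to 16.5 months (paired exact permutation adjusted p = 0.141 for both). With the 5 libraries of 15 months, the paired test could not reach the threshold whatever the values.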
